A study of Gallus gallus with 4 samples.

Results

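TIMP3, other inhibitors of matrix metalloproteinases, several metalloproteinases and genes of the urokinase system were examined in a chicken sarcoma cell line. The cells carried a short hairpin RNA against HOPX or a control one. The genes were TIMP2, TIMP3, TIMP4, RECK, MMP2, MMP9, MMP15, MMP16, PLAU and SERPINE2. Every probe set whose gene symbol in the platform's annotation is one of these names was taken, which gave 18 of the 38535 probe sets on the array, for 10 of 13009 named genes. The anti-HOPX form of the line PR9692 was stably transfected with a short hairpin RNA (shRNA) against HOPX, a gene for a small homeodomain protein, and the control form with a control shRNA. Both forms came from the same sarcoma-derived line of the chicken strain CC.R1, and the series' design text calls the anti-HOPX form non-metastatic and the control form metastatic. Each form was measured on 2 arrays that the titles call biological replicates. No source used here says whether a form was 1 clone or a pool of cells, or whether the arrays came from separate cultures, so the p-values measure only the spread between these arrays.

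Matrix metalloproteinases are zinc-dependent enzymes that cut collagens and other proteins of the extracellular matrix. Some are secreted, such as the gelatinases MMP2 and MMP9, and others, such as MMP15 and MMP16, are anchored in the cell membrane. TIMPs are secreted proteins that block the active site of these enzymes. TIMP3 differs from its relatives in that it binds to the matrix, and it also inhibits sheddases of the ADAM family and aggrecanases of the ADAMTS family. RECK is a membrane-anchored inhibitor of metalloproteinases. Urokinase, the product of PLAU, converts plasminogen to plasmin, and SERPINE2 (protease nexin-1) is a serpin that inhibits thrombin, urokinase and related serine proteases.

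Levels are given as GCRMA values in log2 units, where 1 unit is a doubling, and differences are anti-HOPX minus control. Array medians ran from 3.12 to 3.15 over all probe sets. A mean of at least 4 over the 4 arrays was required for testing, because lower values lie near the background, and 14851 probe sets met it. The median absolute gap between the 2 arrays of a form was 0.25 for anti-HOPX cells and 0.16 for control cells. HOPX itself was near the background, at 3.21 and 3.54 on the anti-HOPX arrays against 3.23 and 3.72 on the control arrays for its brighter probe set, and therefore does not check the labels. Of 12 markers of fibroblast-like sarcoma cells on the array, 8 reached a mean of 4, with VIM and FN1 among the bright ones, whereas COL1A2, TAGLN, ACTA2 and LUM did not. Of the 8 tested markers only COL1A1, a collagen chain of connective tissue, passed the test between the forms, with a difference of 1.73 (limma adjusted p = 0.0020). COL1A2, another collagen chain, went the opposite way, at 2.79 and 2.39 on the anti-HOPX arrays against 4.16 and 5.36 on the control arrays. Its mean was under 4, so it was not tested. Of 25 markers of blood, endothelial, epithelial, erythroid and muscle cells on the array, SPI1 was the only one with a mean of at least 4. This blood-cell marker read 8.51 and 8.90 on the anti-HOPX arrays against 8.26 and 8.07 on the control arrays. Its difference of 0.54 did not pass (limma adjusted p = 0.17).

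Among the protease and inhibitor genes, TIMP3 rose, MMP15 fell and no other passed the test. A probe set rose or fell where its limma adjusted p was under 0.05, adjusted over all 14851 tested probe sets. The filter kept 10 of the 18 probe sets, and these covered 7 of the 10 genes. One of the 10 rose and 1 fell, while over the whole array 3.12% of tested probe sets were higher and 4.54% lower. The genes were chosen with earlier results of these data known, so no count or median of the 10 is a test of them. MMP16 and RECK enter these counts with more than 1 probe set each. Both anti-HOPX arrays lay above both control arrays at 2 of the 10 probe sets and below them at 5. Over the whole array these arrangements made up 27.9% and 28% of tested probe sets, so that lack of overlap alone says little here. The median difference of the 10 was -0.20, against 0.01 over all tested probe sets. The smallest p that an exact two-sided permutation test allows with 2 arrays a form is 0.33, and the calls therefore depend on limma's sharing of the spread across probe sets.

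**Figure D1:**
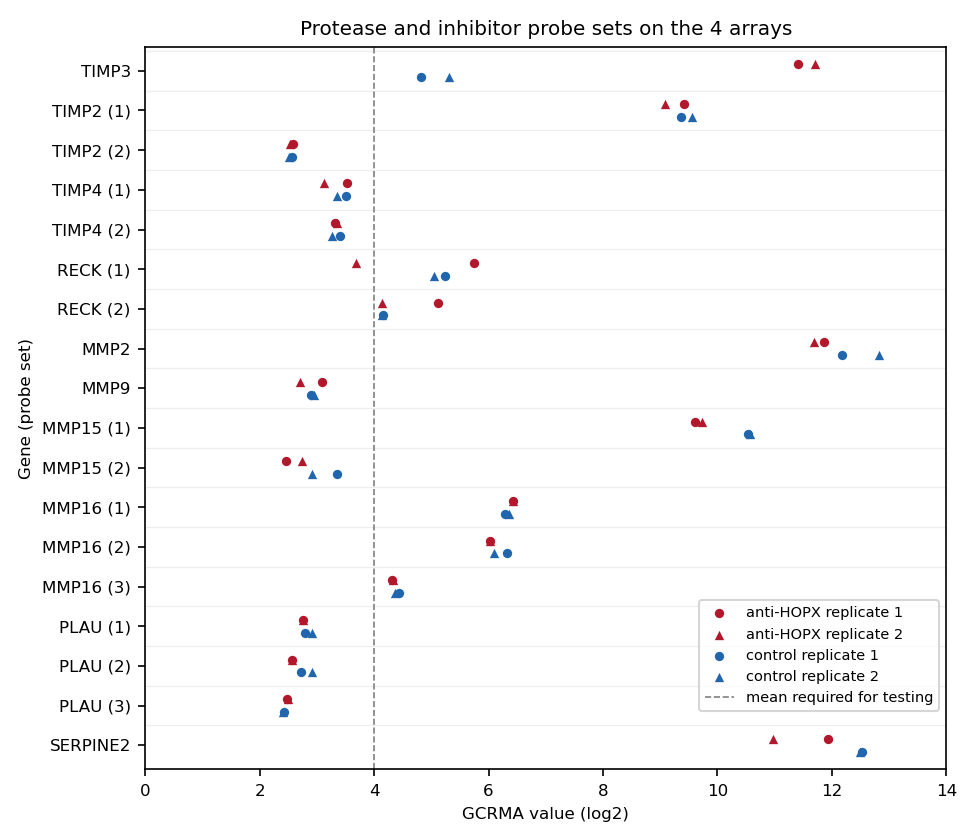
GCRMA values (log2, horizontal axis) of the 18 probe sets on the 2 anti-HOPX arrays (red, upper in each row) and the 2 control arrays (blue, lower), with circles for replicate 1 and triangles for replicate 2. Probe sets of a gene are numbered from the brightest, and the dashed line marks the mean of 4 required for testing; TIMP3 stands apart, at 11.40 and 11.71 in anti-HOPX cells against 4.82 and 5.31 in control cells.

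TIMP3, the matrix-bound inhibitor, read 11.40 and 11.71 on the anti-HOPX arrays, against 4.82 and 5.31 on the control arrays. Both anti-HOPX arrays were far above both control arrays, and the control arrays themselves were above the level of 4 required for testing, so the gene entered the test through either form. The means were 11.55 ± 0.21 in anti-HOPX cells and 5.07 ± 0.35 in control cells (SD, n = 2 each). The difference of 6.49 (SE 0.23, 95% interval 5.91 to 7.06, limma adjusted p = 3.8e-04) corresponds to a fold of 89.7, with an interval from 60.1 to 134. The gap between the control arrays, 0.49, exceeded that of 89.0% of tested probe sets, but it was small beside the difference between the forms. Total RNA of whole cultures was measured, so more cells that express TIMP3 and more TIMP3 RNA in each cell cannot be told apart. With 1 array left out, a form has a single array, which limma takes to vary like the other form's pair. When each array was left out in turn the difference stayed between 6.24 and 6.73, and the highest limma adjusted p was 0.011. The array holds 1 probe set for TIMP3. Its name ends in _a_at, a suffix given to probe sets that match alternative transcripts of 1 gene, so the arrays do not tell TIMP3 transcripts apart.

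The TIMP family did not move as a group. TIMP2, a secreted inhibitor that also helps membrane-type metalloproteinases to activate the MMP2 precursor, read 9.41 and 9.08 on the anti-HOPX arrays against 9.36 and 9.56 on the control arrays at its brighter probe set. These values overlapped between the forms. Its difference was -0.22 (SE 0.18, limma adjusted p = 0.51), with a 95% interval from -0.67 to 0.23 that lies wholly below the interval for TIMP3. The other TIMP2 probe set lay near the background, between 2.52 and 2.57 on all 4 arrays. TIMP4, a TIMP known mainly from heart and brain, read 3.52 and 3.11 on the anti-HOPX arrays against 3.51 and 3.35 on the control arrays at its brighter probe set. Both TIMP4 probe sets were under the level required for testing and overlapped between the forms. No probe set on the array carries the symbol TIMP1 in the annotation used.

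RECK varied more between the anti-HOPX arrays than between the forms. The brighter of its probe sets gave 5.74 and 3.69 on the anti-HOPX arrays, against 5.23 and 5.04 on the control arrays. The other, whose suffix _s_at marks probes that can match transcripts of more than 1 gene, read 5.11 and 4.13 in anti-HOPX cells and 4.15 and 4.13 in control cells. At both probe sets anti-HOPX replicate 1 was the highest of the 4 arrays, whereas anti-HOPX replicate 2 was below the control arrays at the brighter one and level with them at the other. The gap of 2.05 between the anti-HOPX arrays at the brighter probe set was larger than at 99.8% of tested probe sets, and the gap of 0.98 at the other larger than at 96.2%. The differences between the forms had opposite signs, -0.42 (SE 0.65, limma adjusted p = 0.74) and 0.48 (SE 0.35, limma adjusted p = 0.45). Without anti-HOPX replicate 1 the brighter probe set was lower by 1.44 on the log2 scale (difference -1.44, limma adjusted p = 0.026). Without anti-HOPX replicate 2 its difference was 0.60 (limma adjusted p = 0.17), so no direction is given for RECK.

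MMP2, a secreted gelatinase that TIMP2 binds, read 11.86 and 11.69 on the anti-HOPX arrays and 12.18 and 12.83 on the control arrays. Both anti-HOPX arrays were lower, but control replicate 2 stood above control replicate 1 by 0.65, a gap larger than at 94.2% of tested probe sets. The difference of -0.73 (SE 0.23, 95% interval -1.29 to -0.17) had an unadjusted p of 0.020 and a limma adjusted p of 0.12, and did not pass. It was -0.40 without control replicate 2 and -1.05 without control replicate 1, not past the threshold in either case. MMP9, the other gelatinase, read 3.08 and 2.70 on the anti-HOPX arrays against 2.89 and 2.94 on the control arrays. These values were near the background and overlapped, so the arrays show no level for MMP9 in either form.

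MMP15, a membrane-anchored metalloproteinase also known as MT2-MMP, read 9.62 and 9.73 on the anti-HOPX arrays and 10.54 and 10.58 on the control arrays. The forms did not overlap, and the arrays of each form lay close together. The means were 9.67 ± 0.08 in anti-HOPX cells and 10.56 ± 0.03 in control cells (SD, n = 2 each). MMP15 fell by 0.88 on the log2 scale (SE 0.13, 95% interval -1.21 to -0.56, limma adjusted p = 0.022), a 1.85-fold lower level. This call was lost without control replicate 1 (-0.90, limma adjusted p = 0.23) and without control replicate 2 (-0.87, limma adjusted p = 0.24). It was also lost when dim probe sets stayed in the fit (limma adjusted p = 0.092). A second MMP15 probe set, near the background, read 2.47 and 2.73 on the anti-HOPX arrays against 3.35 and 2.91 on the control arrays, and was not tested.

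MMP16, or MT3-MMP, is a membrane-anchored relative of MMP15 and had 3 tested probe sets. The brightest read 6.43 and 6.43 on the anti-HOPX arrays against 6.29 and 6.36 on the control arrays, the second 6.03 and 6.03 on the anti-HOPX arrays against 6.32 and 6.10 on the control arrays, and the third 4.31 and 4.32 against 4.44 and 4.36 in the same order of forms. At none of the 3 did the forms overlap, but the differences were small and of mixed sign, at 0.11, -0.18 and -0.09 (limma adjusted p of 0.77, 0.63 and 0.82). The 3 intervals together reached from -0.67 to 0.57. The anti-HOPX arrays were unusually close at these probe sets, with gaps that exceeded those of 0.572%, 1.54% and 3.11% of tested probe sets.

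SERPINE2, the serpin that inhibits urokinase and thrombin, read 11.93 and 10.98 on the anti-HOPX arrays, against 12.52 and 12.49 on the control arrays. Both anti-HOPX arrays were lower, and they differed from each other by 0.95, more than at 95.8% of tested probe sets. The difference of -1.05 (SE 0.30, 95% interval -1.81 to -0.29) is 2.07-fold in size and did not pass, with an unadjusted p of 0.016 and a limma adjusted p of 0.10. Without anti-HOPX replicate 1 it was -1.53 (limma adjusted p = 0.0023) and without anti-HOPX replicate 2 it was -0.57 (limma adjusted p = 0.032). In both of these fits the spread of SERPINE2 itself comes from the control arrays alone, which differed by 0.038. PLAU, the urokinase gene, was near the background at all 3 of its probe sets. The brightest read 2.75 and 2.75 on the anti-HOPX arrays against 2.78 and 2.92 on the control arrays, and all values of the other 2 lay between 2.41 and 2.91. These arrays therefore show no urokinase transcript level in either form.

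**Figure D2:**
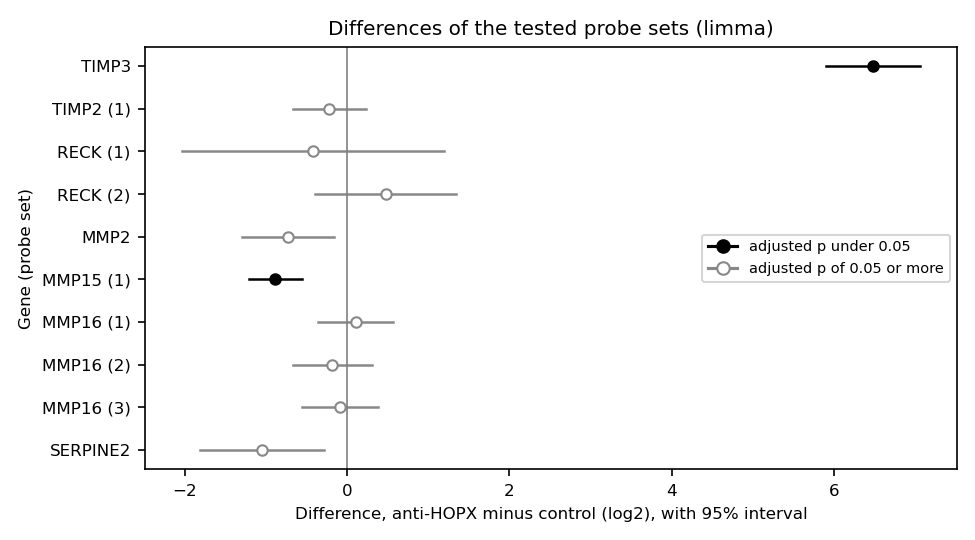
Difference, anti-HOPX minus control (log2, horizontal axis), of the 10 tested probe sets, with limma's 95% interval. Filled black points passed at an adjusted p under 0.05; TIMP3 at 6.49 and MMP15 at -0.88 did so, and the intervals of MMP2 and SERPINE2 lay below 0 without passing the adjusted test.

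**Figure D3:**
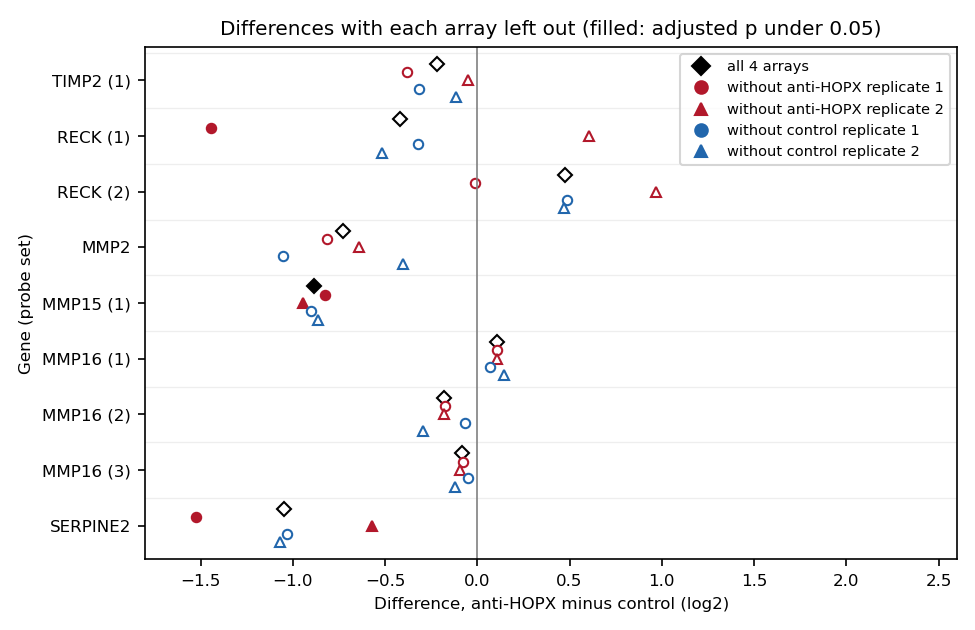
Differences (log2, horizontal axis) of the 9 tested probe sets other than TIMP3 with all 4 arrays (black diamonds) and without each array in turn (red without an anti-HOPX array, blue without a control array). Filled symbols passed at an adjusted p under 0.05; MMP15 passed with all arrays and without either anti-HOPX array, SERPINE2 only without an anti-HOPX array, and both RECK probe sets changed sign, the dimmer one only to just below 0.

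The wider protease network was described with 8 lists of 189 symbols, which include the genes above. A gene was represented by its brightest tested probe set, and 63 of the listed genes were measured. Of the 56 measured genes other than those above, 3 were higher and 4 lower, or 5.36% and 7.14%, close to the 3.63% and 5.24% of all 7691 named genes that were tested. Their median difference was 0.09, against 0.02 over all these genes. At an unadjusted p under 0.05 in the limma fit, 15 of the 56 were higher and 8 lower. Of all 7691 named genes tested, 1011 (13.1%) were higher and 1119 (14.5%) lower at this threshold. The share of the 56 was thus larger than that of all genes on the higher side and about equal on the lower side. The lists were chosen with earlier results of these data known, so the larger share is not a test of them. The counts of single lists below stand beside the same shares of all named genes tested. These were 3.63% higher and 5.24% lower when called, and 13.1% and 14.5% at an unadjusted p under 0.05 in the limma fit. TIMP3 and MMP15 were the only genes called in the lists of TIMPs and RECK (3 measured) and of matrix metalloproteinases (3 measured). Another 10 metalloproteinases on the array, among them the collagenases MMP1 and MMP13 and the stromelysins MMP3 and MMP10, had no probe set above the level for testing.

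None of the 10 measured ADAM and ADAMTS genes passed, while 2 were higher and 1 lower at an unadjusted p under 0.05 in the same limma fit. ADAM17, the sheddase of tumour necrosis factor and a target of TIMP3, read 9.45 and 9.37 on the anti-HOPX arrays against 9.24 and 9.10 on the control arrays, a difference of 0.24 (limma adjusted p = 0.37). The gene was singled out because TIMP3 inhibits its product, after its values were seen. The values farthest from 0 were those of ADAM33 (-0.76) and of ADAM12, a sheddase of muscle and mesenchymal cells (0.64), with limma adjusted p of 0.15 and 0.082. ADAM33 was dim, at 3.89 and 4.52 on the anti-HOPX arrays. The 3 other tested ADAM12 probe sets were of mixed sign, at 0.74, -0.20 and 0.16, and did not pass (limma adjusted p of 0.18, 0.57 and 0.67).

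In the list of plasminogen activation and serpins 1 of 7 measured genes rose and 0 fell, with 2 higher and 1 lower at an unadjusted p under 0.05 in the limma fit. The gene that rose was SERPINH1, which is not an inhibitor but the collagen chaperone HSP47 of the endoplasmic reticulum. It read 13.10 and 13.58 on the anti-HOPX arrays and 11.90 and 11.77 on the control arrays, and rose by 1.505 on the log2 scale (SE 0.18, limma adjusted p = 0.012). SERPINB2, the intracellular and secreted urokinase inhibitor PAI-2, read 7.86 and 9.33 on the anti-HOPX arrays and 5.41 and 7.10 on the control arrays at its brightest probe set. Its arrays did not overlap between the forms but were spread within both, and the difference of 2.34 (SE 0.69) did not pass (limma adjusted p = 0.11). The other 2 tested SERPINB2 probe sets differed by 3.04, which passed (limma adjusted p = 0.018), and by 2.88, which did not (limma adjusted p = 0.076). The probe set that passed has the suffix _s_at, so its probes can match transcripts of several genes. SERPINI1, a serpin of neurons, differed by 0.27 (limma adjusted p = 0.57), and ANXA2 and S100A10, which together form a plasminogen receptor, by 0.21 and 0.02 (limma adjusted p of 0.36 and 0.88), these being named after their values were seen.

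Among 16 measured cathepsins, cystatins and other endopeptidases 1 fell and 0 rose, with 2 higher and 2 lower at an unadjusted p under 0.05 in the limma fit. The gene that fell was CSTA, cystatin A, an inhibitor of cysteine proteases. It read 9.52 and 9.60 on the anti-HOPX arrays against 10.78 and 10.57 on the control arrays, and the forms did not overlap. Its difference was -1.11 (SE 0.14, limma adjusted p = 0.015). CST3, the secreted cystatin C, read 11.58 and 12.66 on the anti-HOPX arrays and 10.94 and 11.21 on the control arrays, a difference of 1.05 that did not pass (limma adjusted p = 0.14), and cathepsin H, CTSH, differed by 0.78 (limma adjusted p = 0.12). None of the 10 serine proteases, convertases and Kunitz inhibitors passed, with 4 higher and 1 lower at an unadjusted p under 0.05 in the limma fit. Of all named genes tested, 13.1% were higher and 14.5% lower at this threshold. Of the 10 genes, 7 were above 0, whereas the largest changes, those of FAP and PRSS23, were below 0. PCSK5, named after its values were seen, differed by 0.94 (limma adjusted p = 0.059). FAP, a membrane serine protease of activated fibroblasts, differed by -1.23 (limma adjusted p = 0.081), and the secreted protease PRSS23 by -1.01 (limma adjusted p = 0.27). The second tested PRSS23 probe set, a dim one, differed by 0.22 (limma adjusted p = 0.77), and the forms overlapped at both.

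The largest falls among the measured genes of the network were in the list of astacins, pappalysins and procollagen processing. There 2 of 3 measured genes fell, against 5.24% of all named genes tested. Another 12 genes of this list on the array had no probe set above the level for testing. Among these were TLL1, MEP1A, MEP1B, PAPPA and PAPPA2, and the annotation used names no probe set for BMP1 or TLL2. No astacin or pappalysin was thus measured, and the count says little about the list. PCOLCE2, an enhancer of procollagen C-proteinase, read 8.76 and 9.14 on the anti-HOPX arrays against 11.53 and 11.45 on the control arrays. It fell by 2.54 on the log2 scale (SE 0.17, limma adjusted p = 0.0018). The suffix of this probe set is _s_at, so its probes can match transcripts of several genes. The second tested PCOLCE2 probe set, without this suffix, was dim, near 4 on all arrays, and differed by 0.0071 (limma adjusted p = 0.99). ANPEP, the membrane aminopeptidase N, read 3.09 and 3.04 on the anti-HOPX arrays against 5.9999 and 5.87 on the control arrays. On the values as deposited ANPEP fell (limma adjusted p = 0.0018). With array values under 4 raised to 4 it was at least 3.82-fold lower. Raising set both anti-HOPX values to 4 and so removed their spread, and no p-value is given for the raised values. ANPEP met the level for testing only through the control form. ECE1, the endothelin-converting enzyme, differed by 0.13 (limma adjusted p = 0.68).

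Of 11 measured partners of TIMP3, activators of metalloproteinases and shed substrates, 2 rose and 1 fell. These are 18.2% and 9.09% of the list, against 3.63% and 5.24% of all named genes tested. At an unadjusted p under 0.05 in the limma fit 5 of the 11 were higher and 2 lower, against 13.1% and 14.5% of all named genes tested. The list was chosen with earlier results of these data known, so these counts are not a test of it. EFEMP1 (fibulin-3), a matrix protein that binds TIMP3, read 7.40 and 7.22 on the anti-HOPX arrays against 6.17 and 5.50 on the control arrays. It rose by 1.48 (SE 0.27, limma adjusted p = 0.037), without overlap. The tetraspanin CD151 rose by 0.60 (SE 0.10, limma adjusted p = 0.030), and its second tested probe set by 0.70 (limma adjusted p = 0.037). Both CD151 probe sets have the suffix _s_at, so their probes can match transcripts of several genes. The call at the first was lost when limma's variance model had no trend (limma adjusted p = 0.084). SDC1 (syndecan-1), a heparan sulphate proteoglycan whose ectodomain is shed, read 11.97 and 12.17 on the anti-HOPX arrays against 13.39 and 13.36 on the control arrays and fell by 1.31 (SE 0.11, limma adjusted p = 0.0041), although its second, dim probe set differed by 0.06 (limma adjusted p = 0.90). CD44, the hyaluronan receptor, differed by -0.89 (limma adjusted p = 0.13) at its brightest probe set, and TNFRSF1A, a receptor that ADAM17 sheds, by 0.80 (limma adjusted p = 0.091). The 3 other tested CD44 probe sets were also below 0. Of these, 1 with the suffix _s_at fell, by 1.05 (limma adjusted p = 0.035). The others differed by -0.87 and -0.78 and did not pass (limma adjusted p of 0.16 and 0.065). SDC2, named after its values were seen, went the opposite way to SDC1, by 0.63 at its brightest probe set (limma adjusted p = 0.13). The second tested SDC2 probe set differed by 1.27, which passed (limma adjusted p = 0.036). KDR, a vascular endothelial growth factor receptor that TIMP3 binds, had no probe set above the level for testing.

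Of the further genes called from the lists, PCOLCE2 and ANPEP stayed called whichever array was left out. Over these fits the difference ranged from -2.73 to -2.35 for PCOLCE2 and from -2.93 to -2.80 for ANPEP. The anti-HOPX values of ANPEP were near the background, so its narrow range does not support the size of its fall. In the fits without a control array the spread of ANPEP itself came from these near-background values alone. With array values under 4 raised to 4 and all 4 arrays, the difference of ANPEP was -1.93. The calls of SERPINH1, CSTA, EFEMP1, CD151 and SDC1 were each lost without control replicate 1 and also without control replicate 2, at limma adjusted p between 0.085 and 0.29, and that of EFEMP1 also without anti-HOPX replicate 1 (limma adjusted p = 0.061).

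**Figure D4:**
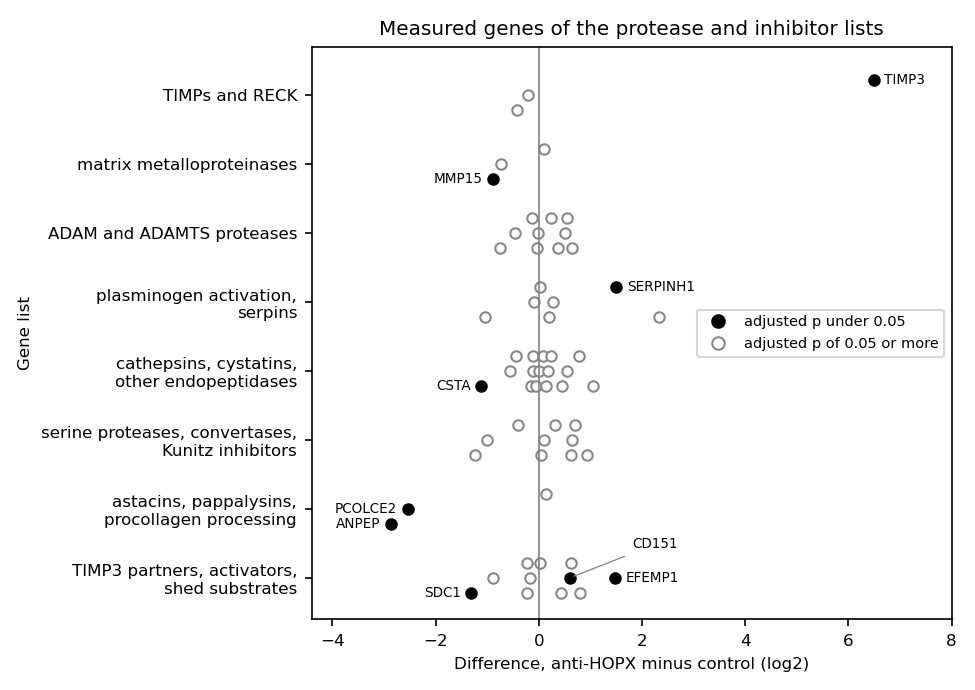
Differences, anti-HOPX minus control (log2, horizontal axis), of the 63 measured genes in the 8 lists (rows), 1 point a gene, shifted vertically for legibility. Filled points passed at an adjusted p under 0.05 and carry the gene's name; TIMP3 at 6.49 lies farthest from 0.

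The genes most like TIMP3 over the 4 arrays were sought among the 7691 tested genes by the root mean square distance between their values after each was centred on its own mean. The 5 nearest were FAM132A, an adipokine, at a distance of 0.30, MALL, a protein of membrane rafts, at 0.41, GEM, a small GTP-binding protein, at 0.49, the unnamed gene LOC417536 at 0.58 and the complement chain C1QB at 0.76. GEM alone of these 5 had control values above 4, at 5.02 and 5.10, and was 56.1-fold higher in anti-HOPX cells. The other 4 met the level for testing only through the anti-HOPX form, and with array values under 4 raised to 4 their folds were at least 9.99 for C1QB, 30.4 for FAM132A, 34.5 for LOC417536 and 47.0 for MALL. Their distances from TIMP3 rest partly on control values near the background, and the choice by likeness fixed the direction of all 5. With 4 arrays in 2 forms, a small distance mostly needs a difference between the forms of about the same size.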

How the data were processed

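The deposited table holds 1 log2 value per probe set and array. The submitters' processing notes name GCRMA and Partek 6.4 without their roles. GCRMA models background from probe sequence and pulls dim probe sets towards a floor, so small differences there are not informative. The sources used here give neither its version nor any filter. The log2 scale follows from the range of the deposited values, 0.753 to 15.97.

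Affymetrix's own 96 control probe sets were not tested. Of the others, 27168 have 1 gene in the platform's annotation, 177 several and 11094 none. Symbols were updated through a RefSeq table of GRCg7b, which held 98.8% of the gene IDs. Probe sets with a mean of at least 4 were fitted together with limma 3.58.1 in R 4.3.3 (lmFit, eBayes with trend, 2 residual and 3.54 prior degrees of freedom), without a replicate block. Tests are two-sided, with Benjamini-Hochberg adjustment over all fitted probe sets. The procedure was checked on simulated data in which spreads were shuffled across probe sets, so the trend of spread with level was not checked. The number of arrays limits the precision. Named from each list were up to 4 called genes and 2 others by size of change. Genes and lists were chosen with earlier results of these data known.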

Additional observations from a re-analysis of the deposited data

How the results depend on the processing

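TIMP3 stayed higher and past the threshold under every alternative run for it. Re-normalising the arrays by quantiles, raising values under 4 to 4, a minimum mean of 6 (which left out RECK and the dimmest MMP16 probe set) and a variance model without the trend changed no call among the tested probe sets of the 10 genes, and 1 probe set per gene moved no count of calls by over 1.5 times. Without the filter on low values, 80 probe sets of the whole array were higher and 194 lower, against 464 and 674, and of the 10 genes' probe sets 0 were lower, as MMP15 (-0.88) no longer passed limma's test. A minimum of 2-fold likewise left 0 lower, since MMP15 changed by less. Leaving out each array in turn gave 34 to 728 probe sets higher and 108 to 1006 lower over the array, and 0 to 3 of the 10 genes' probe sets lower. Over these fits MMP15 ranged from -0.94 to -0.83, SERPINE2 from -1.53 to -0.57, the brighter RECK probe set from -1.44 to 0.60 and the other from -0.0133 to 0.97, and SERPINI1 from -0.0047 to 0.55. The lowest counts over the array were those without control replicate 2, at 34 and 108, and without control replicate 1, at 39 and 115.

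The titles number the arrays of both forms 1 and 2, but no label says what a number shares, so the arrays are not taken as paired. The deviations of same-numbered arrays from their form's mean correlated at 0.25 across probe sets. With the number as a replicate block, 1149 probe sets were higher and 1549 lower, and 3 of the 10 genes' probe sets were lower, with SERPINE2 (-1.05, limma adjusted p = 0.0068) and MMP2 (-0.73, limma adjusted p = 0.024) joining MMP15. Of the 18 other list genes taken by size of change, 8 gained a call with the block, 4 lost theirs without the filter, 5 without either control array, and 1, CD151, without the trend and also at a minimum of 2-fold. What caused these shifts was not tested. Dim probe sets, among them all those of PLAU, MMP9 and TIMP4, are limited by the background.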

Other observations

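In the gene order of GRCg7b, TIMP3 lies inside SYN3, for which the annotation used names no probe set. The nearest protein-coding genes on either side with a tested probe set, looked up after the values of TIMP3 were known, were FBXO7, a subunit of a ubiquitin ligase, and HMGXB4, an HMG-box protein. FBXO7 differed by 0.41 and 0.20 at its 2 probe sets (limma adjusted p of 0.39 and 0.57) and HMGXB4 by -0.51 (limma adjusted p = 0.31). RTCB, the tRNA ligase beyond FBXO7, differed by -0.20 (limma adjusted p = 0.55). No tested neighbour within 4 protein-coding genes of TIMP3 passed.

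A few genes with protease or inhibitor names lie outside the lists and had a tested probe set. MMP23A, a membrane-anchored metalloproteinase, read 4.03 and 4.197 on the anti-HOPX arrays against 4.501 and 4.24 on the control arrays, a difference of -0.25 (limma adjusted p = 0.51). The mitochondrial protease HTRA2 differed by 0.21 (limma adjusted p = 0.44) and the serpin SERPINB10B by -0.26 (limma adjusted p = 0.68).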
